A study of Mus musculus with 6 samples.

Results

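Narrow sites with a high H3K27ac pileup away from annotated gene starts were examined in low-pigment (LP) and high-pigment (HP) B16 cells. A peak was taken when the number of fragments over its summit, the pileup, was 4 or more per 1000000 fragments of its library (FPM), when it was 500 bp or shorter, and when it lay more than 3 kb from every transcription start site (TSS) of the GENCODE annotation of mm10. In the 4 peak lists 161 peaks met these limits, 52 and 33 from LP and 38 and 38 from HP. Merging those that shared at least 1 bp gave 120 sites, out of 182956 merged regions in the whole series. The sites were chosen by their pileup, length and position, so the pileups below describe them and are not evidence that they differ from other regions.

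B16 F10 is a mouse melanoma line, and the cells were in the progressive pigmentation model, in which sparsely seeded cells (100 per cm2) gain pigment over days. On day 5 LP and HP cells were sorted from the same culture by side scatter, a proxy for pigment, with 2 replicates each. No genotype or treatment separated the groups. The only controls were 2 IgG libraries of unsorted cells, each of which served as background for the LP and the HP library of its replicate number, so a sorted population had no IgG library of its own. All cells came from 1 line, and the labels do not say that the replicates were separate cultures.

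Acetylation of histone H3 at lysine 27 marks active promoters and enhancers, and an active enhancer is usually a stretch of chromatin several nucleosomes long. Tandem repeats such as the satellites around centromeres are mostly packed as silent heterochromatin, and the genome assembly holds only a small part of their copies. Reads from many copies can then be placed on the few that were assembled, in an IgG control as in a ChIP library.

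The local background was therefore set beside each pileup. It is the fragment density that the peak caller took from the IgG library around the summit, or over the genome where that was higher, obtained from the pileup and the fold enrichment and scaled in the same way. A site was called high-background when the local background was at least 1 FPM in every list that called it, low-background when it was below 0.5 FPM in every such list, and intermediate otherwise. By this measure 87 of the 120 sites were high-background, 13 were intermediate and 20 were low-background.

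The sequences of 200 bases around the summit show what these classes hold. They are from the plus strand of GRCm38, and capitals mark bases that lie in a 24-mer found at more than 10 places of the genome on either strand. The first 4 stand for the main repeated kinds and for the highest pileup of all sites, and the last pair for low-background sites.
234 bp satellite, chrUn_JH584304:77946-78145: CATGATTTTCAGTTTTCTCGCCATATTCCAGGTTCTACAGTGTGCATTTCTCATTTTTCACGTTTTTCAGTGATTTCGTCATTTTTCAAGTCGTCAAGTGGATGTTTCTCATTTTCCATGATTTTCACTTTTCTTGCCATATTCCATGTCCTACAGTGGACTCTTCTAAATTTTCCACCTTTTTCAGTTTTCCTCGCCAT
4.5S RNA gene array, chr6:47767858-47768057: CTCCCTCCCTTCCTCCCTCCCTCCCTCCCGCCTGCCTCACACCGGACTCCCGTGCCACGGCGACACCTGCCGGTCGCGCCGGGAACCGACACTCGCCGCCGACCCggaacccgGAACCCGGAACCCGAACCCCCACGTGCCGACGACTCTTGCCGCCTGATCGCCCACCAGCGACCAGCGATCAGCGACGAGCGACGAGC
31 bp repeat unit, chr13:119598958-119599157: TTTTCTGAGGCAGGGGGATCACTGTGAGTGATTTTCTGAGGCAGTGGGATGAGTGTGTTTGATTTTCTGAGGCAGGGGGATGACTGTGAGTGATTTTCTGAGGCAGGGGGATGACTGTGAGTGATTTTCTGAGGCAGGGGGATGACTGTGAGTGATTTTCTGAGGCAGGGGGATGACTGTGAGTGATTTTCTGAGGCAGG
Chl1 intron, highest pileup, chr6:103649113-103649312: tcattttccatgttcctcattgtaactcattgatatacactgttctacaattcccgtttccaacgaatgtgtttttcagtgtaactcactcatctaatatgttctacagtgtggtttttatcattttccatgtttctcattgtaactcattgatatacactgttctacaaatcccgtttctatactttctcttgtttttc
Near Arid5a, low background, chr1:36303238-36303437: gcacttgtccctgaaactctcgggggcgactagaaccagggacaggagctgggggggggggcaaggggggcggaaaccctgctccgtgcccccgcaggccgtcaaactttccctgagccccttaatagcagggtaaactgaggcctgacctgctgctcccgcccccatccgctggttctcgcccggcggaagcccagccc
Near Pum2, low background, chr12:8640866-8641065: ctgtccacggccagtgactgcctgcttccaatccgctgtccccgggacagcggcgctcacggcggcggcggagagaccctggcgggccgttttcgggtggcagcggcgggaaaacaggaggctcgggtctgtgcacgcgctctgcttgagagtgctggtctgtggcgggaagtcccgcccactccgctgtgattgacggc

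The satellite and the 31 bp repeat were in capitals throughout, as were 192 of the 200 bases in the 4.5S array. The Chl1 window and both low-background windows held no capital. The Chl1 window was not single-copy, since the median number of places of its 24-mers was 5. Of its bases, 33% were G or C.

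The libraries had 11467942 and 15353176 fragments in LP and 11483830 and 14254904 in HP, so the pileup limit corresponded to at least 46, 62, 46 and 58 fragments over 1 base. The 2 IgG libraries had 8701778 and 19358733 fragments. The study's methods give default settings for the alignment, under which a read that matches several places equally well is placed on one of them at random. Of the 7 melanocyte markers, 5 had a peak within 1 kb of a TSS in all 4 libraries, with summed pileups of 9.85 and 10.3 FPM in LP and 20.5 and 30.9 in HP. Of the fibroblast, keratinocyte, leukocyte and endothelial markers 0 had one in all 4, and their summed pileups were between 0 and 2.09 FPM. HP replicate 2 stood apart, with 806 distal peaks of at least 4 FPM against 135 and 102 in LP and 221 in HP replicate 1. The narrow peaks were 38.5% and 32.4% of these in LP and 17.2% and 4.71% in HP.

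**Figure D1:**
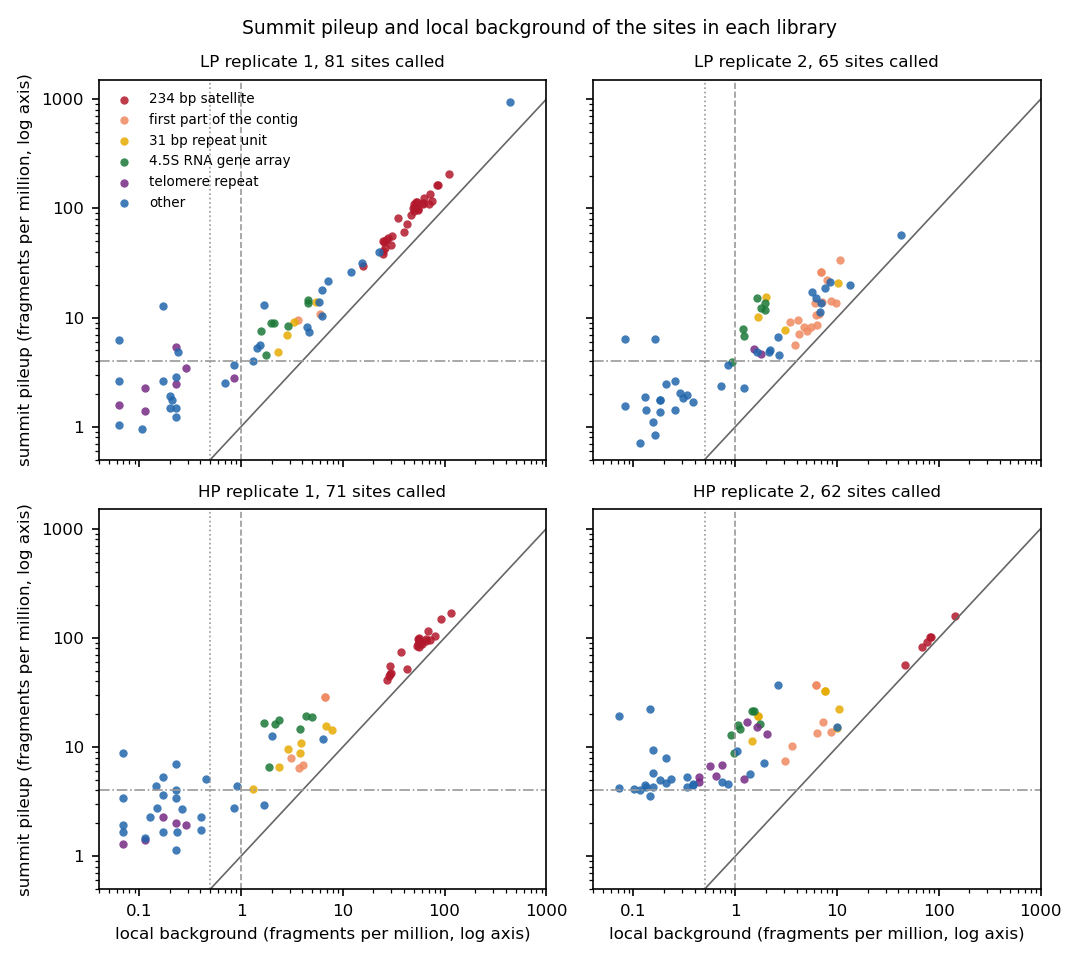
Summit pileup (y axis) against local background (x axis), both in fragments per 1000000 (FPM) on log axes, for the sites called in each library and coloured by sequence group. The solid line marks equal values, the dash-dotted line the pileup limit of 4, and the vertical lines the background limits of 0.5 and 1, and the satellite sites lie close to the solid line in the 3 libraries that call them.

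The high background at these sites was uncommon among peaks in general. Part of that follows from the pileup limit, since a called peak lies above its background. The median pileup of all peaks was 0.610 and 0.716 FPM in LP and 0.871 and 0.842 in HP. Of all peaks in a list 0.319% and 0.141% in LP and 0.261% and 0.0909% in HP had a local background of at least 1 FPM, while 50 of the 52 and 32 of the 33 narrow peaks in LP did, and 32 of 38 and 18 of 38 in HP. Among distal peaks that also reached 4 FPM but were longer than 500 bp, the share was 30.1% of 83 and 39.1% of 69 in LP and 13.7% of 183 and 3.26% of 768 in HP. High background was thus common among the longer high distal peaks of LP too. Over 784 merged distal regions whose highest peak was such a longer one it was 5.61%. Of the 120 sites, 28 were called in all 4 lists, 39 were called in 1 list and 87 met the limits in 1 library. Over all 182956 merged regions, 12084 were called in all 4 lists, a smaller share than among the sites. The sites were chosen by a high pileup, so that difference follows in part from the choice. Of all merged regions 81.7% were called in 1 list. A library's value at a site is that of its highest peak overlapping the site, which can be longer than 500 bp.

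Because the caller took the local background from the IgG library, libraries that shared one were bound to have close values. The log2 ratio of fragment length, HP over LP, was 0.14 between the first replicates and -0.18 between the second. Between HP and LP replicate 1, which share an IgG library, the log2 ratio of the background had a median of 0.11 and an SD of 0.27 over 58 sites, and between the second replicates it was -0.18 with an SD of 0.25 over 41 sites. Between the 2 LP replicates, with different IgG libraries, the SD was 1.21 over 33 sites, and between the 2 HP replicates 1.22 over 51. An IgG library and its replicate number cannot be told apart.

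The sites fell into 5 sequence groups and a remainder, and 71 of the 120 had another site within 10 kb. A 234 bp satellite accounted for 32 sites, the first part of the contig that carries it for 20, subtelomeric TTAGGG repeats for 9, a tandem array of 4.5S RNA genes for 7 and a 31 bp repeat unit for 7. The other 45 sites were spread over 18 chromosomes. Within introns lay 24 of the 120, within exons 5 and between genes 91.

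**Figure D2:**
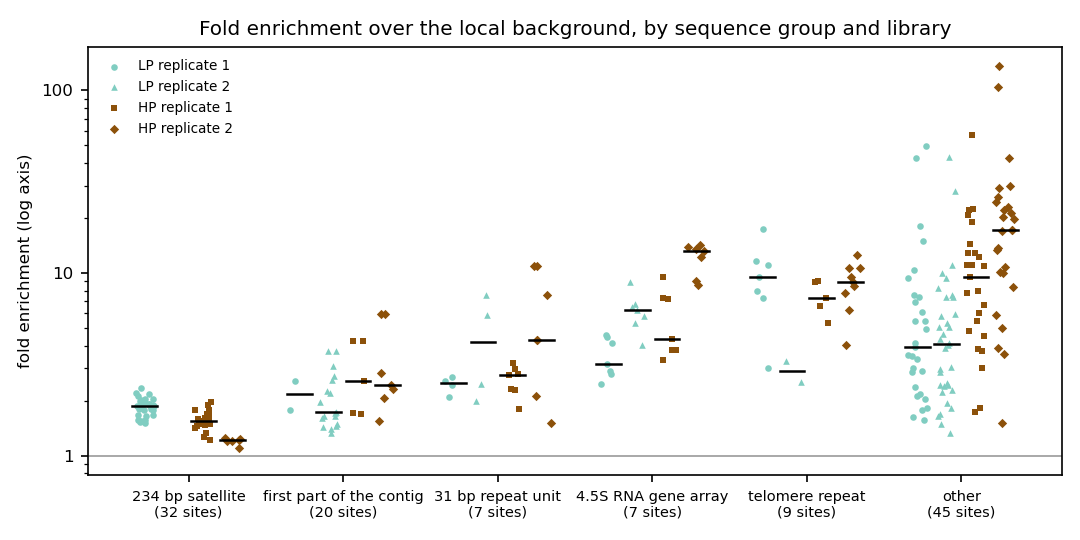
Fold enrichment of the summit over the local background (y axis, log axis) for every site called, by sequence group (x axis) and library, where bars are medians and the grey line is a fold of 1. The 234 bp satellite sites lie between 1.10 and 2.35, while the other sites reach 135.

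The 234 bp satellite sites had the highest median pileup of the sequence groups, at fold enrichments of 1.10 to 2.35. Of the 32 sites, 30 lay on the unplaced contig JH584304, between bases 69512 and 114408 of its 114452, and the remaining 2 lay at chr9:3009304-3009492 and chr9:3009738-3010081. At 30 of them the sequence within 5 kb on either side was most like itself at a shift of 234 bases. That is the unit length of the mouse major satellite, the DNA of pericentromeric heterochromatin, and self-identity over the group had a median of 72.1%.

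LP replicate 1 called all 32 satellite sites and HP replicate 1 called 22, while HP replicate 2 called 6 and LP replicate 2 called 0. The limits that chose the sites were met by 24, 21, 6 and 0 of them in the same order. The median pileup was 97.4 FPM in LP replicate 1, 88.7 in HP replicate 1 and 97.3 in HP replicate 2, over local backgrounds of 49.96, 55.6 and 79.4. The median fold enrichment was 1.87, 1.55 and 1.21 in the same order. Thus 26 of the 32 sites were called in replicate 1 libraries alone, and a replicate and its IgG library cannot be told apart. By mean the highest satellite site was at bases 77950 to 78140 of the contig, in the satellite sequence given above, and was called in LP replicate 1 alone, with 162 FPM over a background of 84.0 and a fold of 1.93. The highest single value, at bases 104205 to 104499, was 209 FPM in LP replicate 1, beside 170 in HP replicate 1 and 82.6 in HP replicate 2. The values of both replicate 1 libraries are those of peaks of 895 and 852 bp, longer than the limit, and the site was taken from the HP replicate 2 peak of 295 bp.

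The first part of the same contig held 20 further sites with another pattern. LP replicate 2 called 18 of them, with a median pileup of 10.7 FPM over a background of 6.28, while LP replicate 1 called 2, HP replicate 1 called 5 and HP replicate 2 called 7. As 16 of the 20 met the limits in LP replicate 2, its many calls follow in part from the choice. In LP replicate 1 2 met them, and in HP 3 and 5. For 19 of the 20 sites the genome stretch sharing most 24-mers was chr11:3130001-3185000, which holds Sfi1, the gene of a centrin-binding protein of the centrosome. The share ranged from 8.14% to 96.0%. On chromosome 11 this stretch had 5 peaks in all the lists, of which 3 reached 4 FPM, none met all limits, and the highest had 4.88 FPM.

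The 31 bp repeat unit was found at 7 sites on chromosomes 9, 13 and X, with a median of 7 places per 24-mer. Both HP libraries called all 7, and each LP library called 4. On chromosome 13, HP replicate 2 had peaks of 4755 and 2437 bp that each covered more than 1 site. Its 7 calls are thus not 7 separate peaks. At chr13:119598922-119599370, in an intron of Tmem267, the pileups were 14.0 and 20.6 FPM in LP and 14.2 and 32.9 in HP over backgrounds of 5.40, 10.3, 7.81 and 7.59, and the groups overlapped. At chr9:124256682-124256878 and chr13:119599800-119600023 a peak was called in both HP libraries and in neither LP library, with 15.7 and 22.2 FPM at the first and 4.09 and 32.9 at the second, where the HP replicate 2 value is that of a longer peak that also covers the Tmem267 site. No other of the 120 sites was called in both HP libraries and in neither LP library, a pattern that 3.94% of all merged regions had, and the fold enrichments at this pair were between 2.12 and 4.302.

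Telomeric TTAGGG units filled the windows of 9 sites on 9 chromosomes, with 32 or 33 units in 200 bases. At 8 of them the site ended 100004 to 100070 bases before the end of the chromosome sequence and at the ninth, on the X chromosome, 272795 bases before it. All 9 had unassembled bases within 10 kb. HP replicate 2 called all 9 with pileups of 4.77 to 17.0 FPM, while LP replicate 1 called 7, HP replicate 1 called 5 and LP replicate 2 called 2. The choice itself favours HP replicate 2 here, since 8 of the 9 met the limits in it, 2 in LP replicate 2 and 0 in either replicate 1 library. At chr7:145341034-145341389 the pileups were 5.41 and 5.15 in LP and 2.26 and 17.0 in HP, so the HP replicates lay on either side of LP. Of the 9 sites 7 were intermediate and 2 low-background, and their fold enrichments of 2.54 to 17.3 were above those of the satellite. The telomere repeat occurs at a median of 2267 places per 24-mer, so the site names one of many places that such reads fit.

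The 4.5S RNA gene array was the 1 group called at every site in all 4 libraries. 4.5S RNA is a small noncoding RNA of rodents that RNA polymerase III makes from tandem gene copies. The RefSeq gene Rn4.5s lies at chr6:47654921-47655094 on the minus strand and is 174 bp long, and a search with its sequence found 18 copies between 47650739 and 47778339, 11 of them identical to it and the rest at least 94.02% identical over the matched part. Copies followed each other at a median of 4336 bases, with a largest step of 54595 bases. The 7 narrow sites had their summits 222 to 577 bases upstream of a copy, with a median of 354.

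A peak stood within 1 kb of the start of 16 of the 18 copies in all 4 libraries, and of 17 in at least 1. The median pileup over the copies was 9.72 and 12.4 FPM in LP and 18.8 and 17.9 in HP. The highest copy, at chr6:47752752-47752925, had 21.9 and 31.3 in LP and 52.4 and 49.7 in HP. At all 16 copies both HP libraries were above both LP libraries on the scale of total fragments, an order found at 74.8% of the 12084 regions called in all 4 libraries. The log2 difference between HP and LP had a median of 0.76 over the copies, from 0.45 to 1.03, below the median of 0.92 over all these regions.

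**Figure D3:**
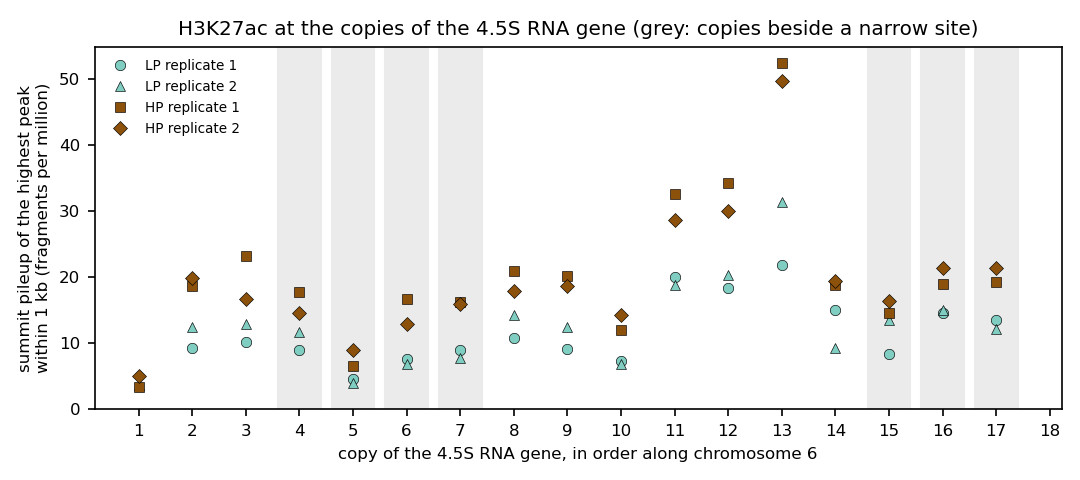
Summit pileup of the highest peak within 1 kb of each copy of the 4.5S RNA gene (y axis, FPM) in the 4 libraries, with copies numbered in order along chromosome 6 (x axis) and grey bands at copies beside a narrow site. HP markers lie above LP markers at the 16 copies called in all libraries, on the scale of total fragments.

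Local background over the array peaks was between 0.732 and 5.34 FPM, and fold enrichment between 2.47 and 18.7. At chr6:47767783-47768101, whose sequence is given above, the pileups were 14.56 and 14.98 in LP and 18.98 and 21.33 in HP over backgrounds of 4.54, 1.63, 4.94 and 1.47. The groups did not overlap in pileup, and the fold enrichments of 3.17 and 8.89 in LP and 3.79 and 13.9 in HP were lower in both replicate 1 libraries. Over the 4 lists, 57 of the 68 array peaks were longer than 500 bp and so were not among the narrow peaks. Reads from near-identical copies cannot be placed on 1 of them, so the array is better read as a whole than by copy.

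The remaining 23 high-background sites fell in none of these sequence groups, but not all were free of repeats. At 3 of them more than 50% of the 24-mers were found at more than 10 places, and at 16 none were. Of these, 17 were called in LP libraries alone, 4 of them in both, and 6 in at least 1 HP library, while 14 were called in a single list. The sites were chosen mostly through LP, as 14 and 13 met the limits in the LP libraries and 2 and 3 in HP. Of all merged regions 43.5% were called in LP lists alone, 0.249% in both LP lists and no HP list, and 81.7% in a single list. In the Chl1 intron, the gene of a neural cell adhesion molecule, LP replicate 1 had 940 FPM at chr6:103649088-103649273 over a background of 444, a fold of 2.11, and the other 3 libraries called nothing there. Of its 24-mers 64.2% recurred on chromosome 2 in the 5 kb from 98665 kb. That stretch holds the highest peak of every list, with 56020 and 42510 FPM in LP and 49154 and 41998 in HP at fold enrichments of 2.62, 1.18, 2.11 and 1.30, and it lies too close to a TSS to be a site.

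At 12 of these 23 sites the median 24-mer was found at 1 place, which does not make the whole window single-copy. At chr3:5860442-5860811 LP had 31.7 and 18.6 FPM over backgrounds of 15.5 and 7.67, and in an intron of Cdk8, a kinase of the Mediator complex, LP had 26.2 and 15.1 over 12.0 and 6.20 at chr5:146261007-146261341. Neither HP library called these places. Their windows had 67.0% and 64.5% G and C bases and shared 27.7% and 25.4% of their 24-mers with stretches on chromosomes 18 and 1. The strongest enrichment among the 23 was at chr19:61199603-61200030, with folds of 7.41 in LP replicate 1 and 6.06 and 13.7 in HP.

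Sequence around the summit was not used to choose the sites or the classes, and is described without a test because sites of 1 repeat share their sequence. The median share of 24-mers found at more than 10 places was 46.9% at high-background sites and 0% at low-background sites, beside 0% over the 784 longer distal regions and over all 132128 distal regions. The intermediate sites, 9 of 13 of them with a share over 50%, had a median of 100%. The median share of G and C bases was 48.5% at high-background and 62.8% at low-background sites, against 47.0% over all distal regions and 59.5% over the longer ones. The ratio of observed to expected CpG was 0.644 and 0.536 against 0.171 and 0.364.

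Both class medians of CpG were thus above that of all distal regions. Soft-masked bases had medians of 59.0% at high-background and 12.3% at low-background sites. The high-background groups differed, however. The 32 satellite sites had medians of 79.1% repeated 24-mers, 0.801 for CpG and 100% masked. These were 0%, 0.174 and 10.3% at the 20 sites in the first part of the contig. At the 23 high-background sites outside the sequence groups they were 0%, 0.322 and 12.0%. The spread within a class was wide, as 29 of the 87 high-background sites held no repeated 24-mer and 6 of the 20 low-background sites had a share over 50%. Sequence around 41 of the 87 high-background sites, 4 of the 13 intermediate and 0 of the 20 low-background sites was more than 45% identical to itself at 1 shift.

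**Figure D4:**
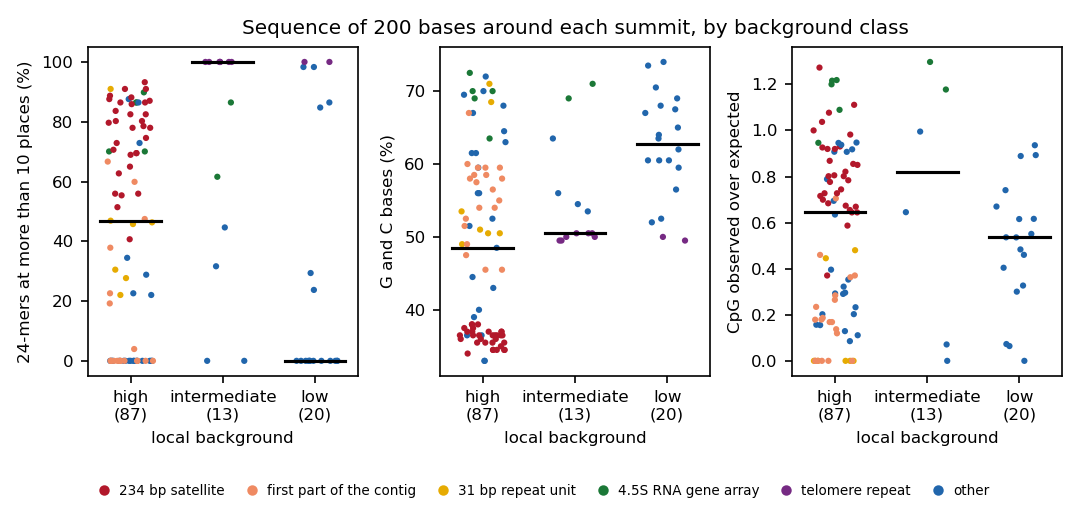
Share of 24-mers found at more than 10 places of the genome (left, %), share of G and C bases (middle, %) and observed over expected CpG (right) in 200 bases around the summit of each site, by background class (x axis, number of sites in brackets) and coloured by sequence group. Bars are class medians, and the repeated share has its median at 46.9% in the high, 100% in the intermediate and 0% in the low class.

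Fold enrichment at the 20 low-background sites ranged from 3.74 to 135, and most sites were called in several libraries. Where a site met the pileup limit, the choice itself set a high fold. The lowest folds of LP replicate 1, LP replicate 2 and HP replicate 1 were 4.13, 3.89 and 3.74. Each was below the median fold of all peaks in its list, 4.31, 4.36 and 4.95 in the same order. The class medians of 7.33, 5.97 and 11.1 were above these list medians, which the choice of high pileups over low backgrounds favours. In HP replicate 2 the lowest fold was 9.51, against a median of 4.92 over all its peaks. Of the 20 sites, 11 were in all 4 lists and 8 in 3, beside 12084 of all 182956 merged regions in all 4. A choice by high pileup favours calls in several lists, so these counts are not evidence that the sites are more reproducible. Membership came mostly from 1 library, as 16 of the 20 met the pileup limit in HP replicate 2 and 5 would remain as low-background sites without it. HP replicate 2 had the highest value at 19 of the 20. None was called in both libraries of 1 population and in neither of the other, patterns found at 3.94% (HP) and 0.249% (LP) of all merged regions.

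The highest low-background site, chr8:69716467-69716942, had 12.7 and 6.38 FPM in LP and 7.05 and 22.4 in HP, over backgrounds of 0.172, 0.163, 0.230 and 0.144. The groups overlapped, and the fold enrichments were 49.4 and 28.3 in LP and 22.5 and 105 in HP. It met the distance limit by GENCODE, with the TSS of Zfp869, a zinc finger gene, 6009 bases away. In the RefSeq annotation the summit lies 104 bases from a Zfp869 start, so here the description as away from gene starts did not hold. RefSeq starts lay within 3 kb of 15 of the 120 sites, 2 of them low-background.

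The next was chr12:8640787-8641210, intergenic and 33169 bases from Pum2, which encodes an RNA-binding repressor of translation. It had 6.28 and 6.32 FPM in LP and 8.79 and 19.2 in HP, and folds of 42.4 and 43.4 in LP and 56.7 and 135 in HP. Both HP libraries were above both LP libraries, as at 74.8% of regions called in all 4 libraries. The windows of this and the Zfp869 site held 69.0% and 73.5% G and C bases and an observed over expected CpG of 0.889 and 0.936.

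Lower sites of the class lay near genes of many kinds. At chr1:36303147-36303574, 4396 bases from Arid5a, a nucleic acid-binding regulator of inflammatory genes, the pileups were 2.62 and 2.61 FPM in LP and 5.31 and 9.47 in HP, without overlap. At chr4:117193324-117193804, whose nearest coding start is that of Kif2c, a kinesin that depolymerises microtubules, they were 1.92 and 1.37 against 4.01 and 5.82. At chr3:104967702-104968182, near Wnt2b, a secreted Wnt ligand, they were 1.48 and 1.76 against 3.66 and 4.98. These 3 sites were higher in both HP than in both LP libraries, an order found at 74.8% of regions called in all 4 libraries. All 3 met the limits through HP peaks alone, so the choice favours this order. The Kif2c site was the one of them with repeated sequence (86.4% of its 24-mers).

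The Cd80 intron site, chr16:38476354-38476838, in the gene of a ligand for T cell co-stimulation, had 1.05 and 2.02 FPM in LP and 3.396 and 5.12 in HP. Exons of 5 genes held a low-background site, among them Sptbn4, a spectrin of axons, Syp, which encodes synaptophysin, and Stard13. Their pileups were 2.88 and 1.76 in LP and 2.79 and 4.70 in HP at Sptbn4, and 2.62 and 1.89 against 1.65 and 4.49 at Syp. At both the groups overlapped. At Stard13 they were 0.959 and 1.69 against 2.26 and 4.56. At chr6:89006952-89007434, in an intron of the long noncoding RNA gene 4933427D06Rik, they were 1.22 and 1.43 against 1.65 and 4.07. The groups overlapped at neither. Both sites met the limits in HP replicate 2 alone, which favours this order, and 74.8% of regions called in all 4 libraries had it.

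**Figure D5:**
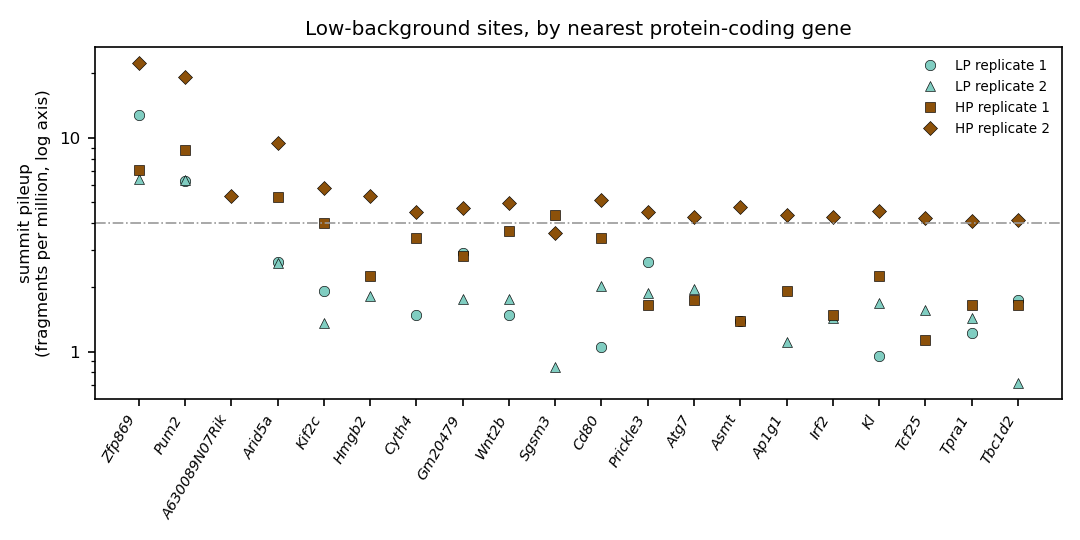
Summit pileup (y axis, FPM, log axis) of the 20 low-background sites in each library that called them, labelled by the nearest protein-coding gene (x axis) and ordered by their mean. The dash-dotted line is the limit of 4 FPM, and HP replicate 2 is the highest marker at 19 of the 20 sites.

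Of the 11 low-background sites in all 4 lists, 7 had both HP libraries above both LP libraries and 0 had both below, beside 74.8% and 0.141% of all regions called in all 4 libraries. The share of these sites was thus near that of regions in general. Between the second replicates the log2 ratio of HP to LP had a median of 1.55 over 17 low-background sites and was positive at all 17. Between the first replicates the median was 0.49 over 13 sites and 8 were higher in HP. The choice of sites favoured HP in both comparisons. Of the 20 sites, 16 met the limits in HP replicate 2 and 1 in LP replicate 2, beside 4 and 1 in the first replicates. These ratios are thus not evidence of a difference between the populations.

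Whether any site differed by pigment was read from a fit over all regions. Limma on the log2 scaled pileup of 12084 regions called in all 4 libraries, with Benjamini-Hochberg adjustment, called 485 (4.01%) higher in HP and 0 lower at an adjusted p below 0.05. At an unadjusted p below 0.05 it gave 4374 higher and 0 lower. The median log2 difference over all regions was 0.92. The narrow sites lay in 28 of these regions, of which 1 was called, with a median log2 difference of 0.79 and a positive sign at all 28. Both HP libraries were above both LP libraries in 18 of the 28, against 74.8% of all regions.

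The 1 called region held chr8:109806654-109807068, in an intron of Ap1g1, which encodes a subunit of the clathrin adaptor AP-1. There the site had 1.11 FPM in LP replicate 2 and 1.92 and 4.35 in HP, and LP replicate 1 had a peak elsewhere in the region. The log2 difference over the region was 1.72 (SE 0.54, adjusted p = 0.0482, limma). It was not called without any 1 of LP replicate 1, LP replicate 2 and HP replicate 2, settings that left 0 calls in all. It was also not called with the replicate number as a block, where 88 regions and 0 of the 28 were called. Without HP replicate 1 limma called 6930 regions, 14 of the 28 among them. With a library left out, its group has 1 sample, and the fit takes that sample to vary like the pair of the other group. With libraries centred on their medians 0 regions were called, and the median log2 difference was -0.22 over the 28 and -0.09 over all regions. Since the pileup chose the sites, these values describe them.

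The genes next to the sites were set beside lists of pigmentation and proliferation genes. Of 35 pigmentation genes and 20 proliferation genes, each with a TSS in the annotation, 0 were the nearest protein-coding gene of any of the 120 sites. Over all 132128 distal regions the share was 0.621% for the pigmentation and 0.195% for the proliferation genes, so that 0 of 120 is near the background. The letters CACGTG, an E-box that MITF and related factors can bind, occurred in the windows of 8 sites (6.67%, against 2.67% of all distal windows). Of the 8 windows, 5 were copies of the one 4.5S array and 3 lay elsewhere, so they are not 8 independent sequences. They were in 6 high-background, 2 intermediate and 0 low-background windows. The CENP-B box, searched by its invariant letters, was in 0 windows of the sites and in 0.0114% of all distal windows. The other letters searched on both strands were TCATGTG in 2 windows, TGANTCA in 3, CTTTGAT in 0, ACAAAG in 10, CCGGAAG in 1 and TGTGGTT in 3, and their shares over all distal windows were 3.86%, 6.14%, 3.28%, 17.0%, 1.15% and 4.48%.

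At the limits of the choice, the peaks just inside the pileup limit had 4.01, 4.01 and 4.07 FPM, over backgrounds of 0.230, 1.32 and 0.117, and those just outside had 3.999, 3.97 and 3.92 over 0.144, 0.0905 and 0.128. Peaks just inside the length limit were 494, 493 and 491 bp long and had 10.9, 47.6 and 4.56 FPM. Those just outside were 503, 504 and 507 bp long with 4.07, 4.91 and 17.0 FPM, and the last of them is the HP replicate 2 peak beside the telomere repeat of chromosome 7. The length limit thus split peaks of the same place between libraries.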

How the data were processed

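H3K27ac ChIP-seq of sorted LP and HP cells (2 replicates each) and IgG of unsorted cells (2 libraries) was used as peak lists. The authors trimmed reads with Trimmomatic 0.33 after bcl2fastq 2.20, aligned them to mm10 with Bowtie2 2.5.1 and called narrow peaks in each library with the same-numbered IgG as control, keeping duplicates, at a q-value of 0.05 (MACS 3.0.0b1 in the file headers). The study's methods give default settings, with which Bowtie2 places a read that matches several places equally well on one of them at random, and state no filter on mapping quality. The labels and the methods differ in the formaldehyde percentage of the fixation.

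The deposited pileup is a signal, the count of fragments over the summit, without scaling. The deposited fold enrichment is the ratio of pileup plus 1 to local background plus 1, and the background was recovered from it. The deposited −log10 q-value served for 1 alternative. A second set of interval files only tied the lists to samples, and all their intervals matched. Total fragments came from the file headers.

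TSS were all transcripts of GENCODE for GRCm38, and sequence and RefSeq genes were those of GRCm38. Contig JH584304 was identified by its start and stop codons and splice sites (13 of 13 matched). Copies of the 4.5S RNA gene were found with BLAST 2.17.0 (identity of at least 85% over at least 80 bp). Regions were the merged intervals of the 4 lists, and log2 pileups in FPM over regions called in all 4 were compared with limma 3.58.1 (R 4.3.3), with Benjamini-Hochberg adjustment and no block. Limma's prior degrees of freedom were infinite, so 1 variance served every region, and p-values measure the spread between 2 samples per group that may be technical. The k-mer counts and the limma step were tested on simulated data. Python 3.11.15, pandas 2.3.3, numpy 2.4.6 and numba 0.67.0 were used.

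Named sites are the 10 of highest mean pileup in the high-background class, of which 9 are satellite sites and are described as a group with the highest by mean and by single value, and the 10 highest low-background sites called in all 4 lists. The sites, classes and lists were chosen with earlier results of these data known, and the sequence groups, the sequences shown and the other sites named were chosen after values were seen. Tests on the pileup are descriptions. Read counts and alignments were not analysed here. The alternatives were other limits of pileup, length, distance, background and q-value, other scalings, leaving out each library, and other k-mers and windows.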

Additional observations from a re-analysis of the deposited data

How the results depend on the processing

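The number of sites, 120, became 196 with a pileup limit of 3 FPM, 56 at lengths of at most 300 bp, 325 at lengths of at most 1 kb and 70 on chromosomes 1 to 19, X and Y. It became 63 without sites whose repeated 24-mers exceed 50%, and 105 when RefSeq starts were also kept at 3 kb, both added after the data were seen. The 87 high-background sites became 51 at 300 bp and 37 on those chromosomes, and 16 other alternatives moved them by less than 1.5 times. The 20 low-background sites became 68 at 3 FPM, 2 at 6 FPM, 1 at 300 bp, 174 at 1 kb, 13 at more than 10 kb from a TSS, 34 with protein-coding starts alone and 11 at a background below 0.25. Leaving out 1 library gave 91 to 106 sites, 63 to 85 high-background and 5 to 20 low-background, the lowest without HP replicate 2. The median repeated share at high-background sites, 46.9%, was 27.6% with 31-mers and 44.9% over the whole site.

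The 485 regions called higher in HP by limma became 0 after centring on the library median, 0 after quantile normalization, 0 with a pseudocount of 1 FPM, 0 with the mean of the summits and 3 with at least 10 fragments in each library. Leaving out 1 library gave 0 to 6930. With the replicate number as a block there were 88. The deviations of same-numbered LP and HP libraries correlated at 0.0153. This does not decide whether the numbers pair the samples, since LP and HP were sorted from the same culture and share an IgG library by number. The 16 copies of the 4.5S RNA gene with a peak in all libraries stayed 16 with windows of 300 bp and 2 kb, added after the data were seen. The cause of these changes was not tested.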

Other observations

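Narrow satellite sites were part of a longer stretch of calls on the contig. Between its bases 69512 and 114408 LP replicate 1 had 34 peaks, of which 12 were longer than 500 bp, HP replicate 1 had 26 with 6 longer, HP replicate 2 had 6 with 0 longer and LP replicate 2 had 0 peaks. Peaks there were up to 994 bp long.

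A pair of sites in an intron of Tusc3, chr8:39152807-39153297 and chr8:39155340-39155744, was intermediate in background at 0.690 to 0.919 FPM. At the second the pileups were 2.53 and 3.71 FPM in LP and 4.44 and 4.77 in HP, without overlap, with folds of 3.37, 4.12, 4.499 and 5.91. That site met the limits in HP replicate 1 alone, which favours HP. Both HP libraries were above both LP libraries at 74.8% of regions called in all 4 libraries. The sequence around the pair was most like itself at a shift of 2571 bases. The rule for named sites does not hold this pair, and it was chosen after its values were seen.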
